A study of Mus musculus with 8 samples.

Results

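Complement is a cascade of secreted proteins that tags targets for uptake and produces fragments that signal to cells. C1q, the recognition molecule of the classical route, is built from A, B and C chains; it binds antibody complexes, amyloid fibrils and synapses, and starts cleavage of C4 and then of C3, whose fragments coat the target. The alternative route amplifies C3 cleavage and is stabilised by properdin, the product of Cfp. The small fragments C3a and C5a act on the receptors C3AR1, C5AR1 and C5AR2, and in the brain microglia are the main source of C1q. The genes described here are C1qa, C1qb, C1qc, C3, C4b, C3ar1, C5ar1, C5ar2 and Cfp, 9 of the 56832 rows of the deposited table, taken by symbol and not by their values. All 9 averaged at least 10 normalized counts over the libraries and so entered the test, which held 14428 genes.

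RNA was sequenced from microglia sorted from brains of young adult male 5xFAD mice. The ethanol group received 3 g/kg ethanol intraperitoneally as a 20% solution, on 5 days a week for 4 weeks, and then 2 weeks of withdrawal. The saline group had the same schedule with saline. Each group had 4 libraries, called ethanol 1 to 4 and saline 1 to 4 after their titles, and the comparison asks whether long alcohol exposure altered the microglial transcriptome. Every library of both groups carries the 5xFAD transgenes, which encode mutant human amyloid precursor protein and presenilin 1 under the neuronal Thy1 promoter, and no library of mice without the transgenes was analysed here. The exact age is not given in the sources used here. The titles name separate samples but no separate animals, so p-values measure the spread between libraries, part of which can be technical.

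Libraries held 14271351 to 17231301 assigned reads. The values are DESeq2-normalized counts, that is, reads divided by a size factor per library, and 1 read was worth 0.908 to 1.09 normalized counts. The 8 microglial markers were all abundant, with a summed level of 700650 to 737937 normalized counts in ethanol and 661786 to 725770 in saline libraries. Differences between ethanol and saline were tested with limma on log2(value + 1), two-sided, with Benjamini-Hochberg adjustment over all 14428 genes and a threshold of 0.05. A fold is ethanol over saline on that scale, with a 95% interval. Reads were not marked by strand, so a gene and an overlapping antisense transcript cannot be told apart, and in such bulk libraries fewer expressing cells and less RNA per cell cannot be told apart either.

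C1qb, C1qc and C1qa lie side by side on chromosome 4, with no gene between neighbours in the RefSeq gene order. The upstream sequences of C1qb and C1qc are shown because these genes ran in parallel across the libraries, as given below. Both come from RefSeq, build GRCm38.p6, minus strand, and end before the transcribed region: C1qb at chr4:136886201-136886450 and C1qc at chr4:136893066-136893164. The C1qb piece has 250 bases and runs up to the gene start. The C1qc piece has only 99 bases, from the far end of its window, and leaves out the bases next to the gene start. Capitals mark matches, on either strand, to GAGGAA, the core letters of PU.1 and other ETS sites, or to TGCTGA, the letters of a MAF half-site.
C1qb: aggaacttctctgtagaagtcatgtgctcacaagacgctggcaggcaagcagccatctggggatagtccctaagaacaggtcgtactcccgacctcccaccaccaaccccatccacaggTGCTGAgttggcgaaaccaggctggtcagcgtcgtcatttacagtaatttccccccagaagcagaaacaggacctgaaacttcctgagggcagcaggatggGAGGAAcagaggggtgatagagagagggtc
C1qc: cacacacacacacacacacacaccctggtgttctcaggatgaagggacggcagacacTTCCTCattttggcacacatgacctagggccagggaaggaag
In the full windows, 250 bases before to 50 after the gene start, GAGGAA or its reverse TTCCTC occurred at position -30 of C1qb and -193 of C1qc, and TGCTGA at -131 of C1qb. GAGGAA is held by 28.3% of all 32851 RefSeq windows and TGCTGA by 19.5%, so these matches are common. An interferon regulatory factor motif was searched as well; it is held by 3.44% of windows and had no match in either of these. Windows were at hand for 7 of the 9 genes.

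The C1q chain transcripts were among the most abundant in the microglia and had nearly equal levels after ethanol and after saline. C1qc, C1qb and C1qa ranked 7, 10 and 37 among the 14428 genes by mean normalized count. Together the 3 transcripts took up 1.45 ± 0.0696% of all normalized counts in ethanol and 1.46 ± 0.0805% in saline libraries (SD, n = 4 each).

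C1qa, the A chain gene, had 30149, 31273, 33854 and 34588 normalized counts in ethanol 1 to 4, against 31112, 32636, 37697 and 32819 in saline 1 to 4. The groups overlapped, and saline 3 was the highest of the 8. The fold was 0.968 (0.879 to 1.07), with a limma adjusted p of 0.997. C1qb, the B chain gene, had 83344, 86734, 88466 and 95433 in ethanol libraries and 83812, 85975, 96432 and 91411 in saline libraries. Here too the groups overlapped, at a fold of 0.990 (0.911 to 1.08). C1qc, the C chain gene, had 99723, 103743, 109121 and 113500 in ethanol libraries and 98136, 102440, 116468 and 108348 in saline libraries, a fold of 1.00 (0.920 to 1.09). For each chain the interval excluded a change of 1.2-fold in either direction.

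**Figure D1:**
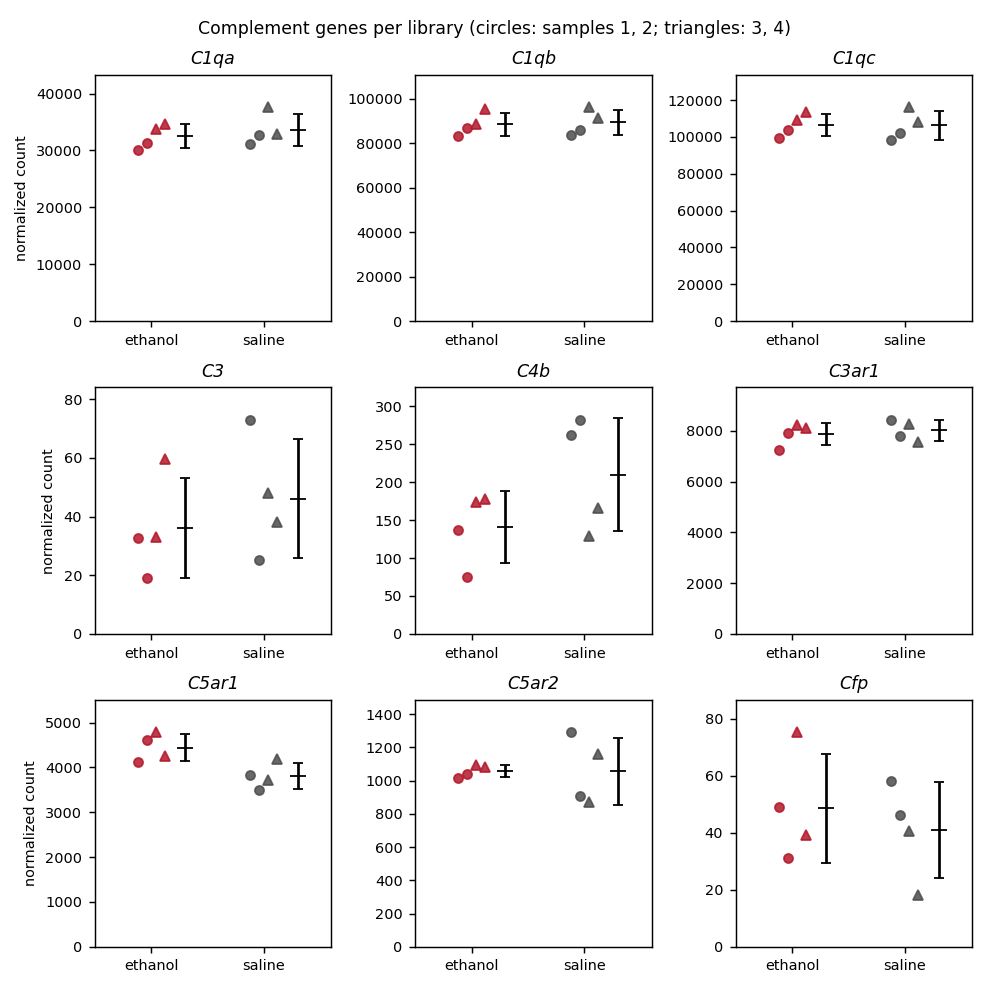
Normalized counts of the 9 complement genes in each library, with ethanol (red) left of saline (grey) in each panel, circles for samples 1 and 2, triangles for samples 3 and 4, and the mean with SD as a bar (n = 4). The C1q chains and C3ar1 vary little, while C3, C4b and Cfp vary more, relative to their means, between libraries of one group. C4b, for example, ranges from 75.2 to 178 in ethanol and from 129 to 283 in saline libraries.

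The chains kept nearly constant proportions within a library. The ratio of C1qa to C1qc was 0.305 ± 0.00395 in ethanol and 0.316 ± 0.00889 in saline libraries (SD, n = 4 each). That of C1qa to C1qb was 0.367 ± 0.0106 in ethanol and 0.375 ± 0.0135 in saline libraries, and that of C1qb to C1qc was 0.831 ± 0.0136 in ethanol and 0.841 ± 0.0108 in saline libraries. On the log2 scale the differences, ethanol minus saline, were -0.05, -0.03 and -0.02. In an exact permutation test (two-sided, 70 arrangements) none passed, with p = 0.0857, 0.371 and 0.343, or 0.257, 0.371 and 0.371 after Benjamini-Hochberg adjustment over the 3 ratios. The smallest p that this design can give is 0.0286. Over the 8 libraries the log2 ratios had SDs of 0.0399 for C1qa to C1qc, 0.0466 for C1qa to C1qb and 0.0220 for C1qb to C1qc, against 0.102, 0.0805 and 0.0881 for C1qa, C1qb and C1qc themselves.

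What variation the chains had followed the sample numbers more than the treatment. Each of the 4 libraries numbered 3 and 4 lay above each of the 4 numbered 1 and 2, for C1qa (32819 to 37697 against 30149 to 32636), C1qb (88466 to 96432 against 83344 to 86734) and C1qc (108348 to 116468 against 98136 to 103743). The means of samples 3 and 4 were 1.11-fold, 1.09-fold and 1.11-fold those of samples 1 and 2. Such a division, higher in samples 3 and 4, was seen in 3 of the 9 complement genes, in 4.54% of all genes tested and in 7.51% of the 3450 genes that averaged 1000 or more. Because the 3 chains move together, they are not 3 separate cases. The sets also lay apart on the first principal component of all genes tested, which held 20.1% of the variance. Samples 1 and 2 had -31.4 to -13.9 on it, and samples 3 and 4 had 4.58 to 60.7. The opposite division, lower in samples 3 and 4, was seen in 0 of the 9 and in 3.49% of all genes tested. The division by sample number was chosen after seeing the data, the labels do not say what the numbers stand for, and it received no test. It partly coincides with the number in the library names, whose meaning is not given either. That number is 165 for ethanol 1, ethanol 2 and saline 2, and 163 for ethanol 3 and saline 3. It is 164 for saline 1, ethanol 4 and saline 4. The division and this number were not told apart. Within samples 1 and 2 the ratios of ethanol to saline means were 0.964, 1.00 and 1.01 for C1qa, C1qb and C1qc, and within samples 3 and 4 they were 0.971, 0.979 and 0.990.

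**Figure D2:**
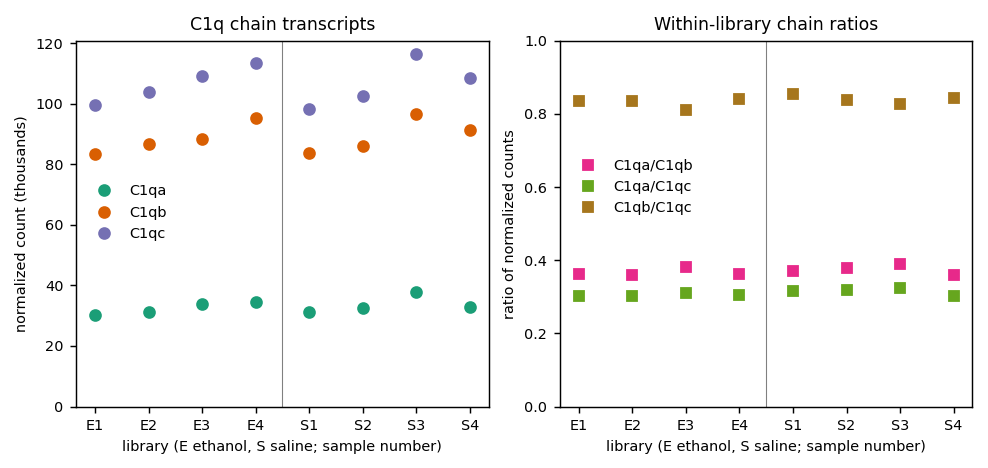
Left, normalized counts divided by 1000 of C1qa, C1qb and C1qc in ethanol libraries E1 to E4 and saline libraries S1 to S4; right, the ratios of normalized counts between chains in the same libraries. The 3 chains move together, with the C1qa to C1qc ratio between 0.301 and 0.324 in all 8 libraries.

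Genes that ran most nearly in parallel with the C1q chains were sought among 3444 other genes with a mean of at least 1000, by the SD over the 8 libraries of the log2 ratio to the chains' mean. The closest were Psme2, a proteasome activator subunit gene, with an SD of 0.0318, Psap, which encodes the lysosomal prosaposin, with 0.0332, the small GTPase gene Arf1 with 0.0344, Tmem50a with 0.0350 and the cathepsin Z gene Ctsz with 0.0352. The median of the 3444 genes was 0.156. All values share the 8 libraries and their scaling, so this is a description. Running in parallel was not particular to the chains. The log2 ratios between chains had SDs of 0.0220 to 0.0466, and the SDs of these 5 genes lie within that range. The measures differ, since these 5 genes were set against the mean of the chains.

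Downstream of C1q, C4b and C3 were low in these cells and varied between libraries of one group. C4b encodes complement C4, which C1 cleaves to build the classical C3 convertase. It had 137, 75.2, 174 and 178 normalized counts in ethanol 1 to 4, against 263, 283, 129 and 166 in saline 1 to 4. Saline 1 and saline 2 were the highest and ethanol 2 the lowest, while saline 3 lay below ethanol 1, so the groups overlapped. C4b averaged 141 ± 47.7 in ethanol and 210 ± 74.1 in saline libraries (SD, n = 4 each). The fold was 0.671 (0.434 to 1.04), with a limma p of 0.0690 before adjustment and 0.997 after it. The direction was not shared by all libraries. In samples 1 and 2 the ratio of ethanol to saline means was 0.389, and in samples 3 and 4 it was 1.19. C4a, a near-identical gene close to C4b on chromosome 17, had 0 to 14.0 normalized counts, and reads of the pair may have been divided between them.

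C3, the central component that every route cleaves, was the lowest of the 9 genes, with 19 to 79 reads per library. It had 32.6, 19.0, 33.1 and 59.7 normalized counts in ethanol 1 to 4, and 73.0, 25.1, 47.9 and 38.2 in saline 1 to 4. The highest library was saline 1 and the lowest ethanol 2, and each group held high and low libraries. The fold was 0.783 (0.415 to 1.48), which leaves room for a 2-fold decrease, and the limma adjusted p was 0.997. Counting alone gives a 95% Poisson interval of 11.5 to 29.7 for ethanol 2 and 57.8 to 91.0 for saline 1. These libraries have no molecular identifiers, so the intervals cover counting error only.

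Neutrophil markers were followed beside C3. The summed level of 10 such markers, 8 of them with a mean of at least 10, was 2537, 4209, 5690 and 10773 in ethanol 1 to 4 and 14387, 2995, 7862 and 2754 in saline 1 to 4. The ethanol mean was 5802 and the saline mean 6999.6. The 3 libraries with the most C3, saline 1, ethanol 4 and saline 3, were also those with the highest sums. The other libraries did not keep the order: saline 4 had the fourth most C3 with the second lowest sum, and ethanol 2, with the least C3, had a higher sum than ethanol 1, saline 2 and saline 4. None of the 10 markers was at 0 in every library; Ngp, a neutrophil granule protein gene, had the highest mean, 2369.8, followed by S100a8 with 1732. The part of these transcripts in the C3 values was not tested. The 5 genes closest to C3 by the SD of the log2 ratio were Lsp1, a leukocyte actin-binding protein gene, Rab5c, Rab3gap1, H2-M3 and mt-Nd4, with SDs of 0.475 to 0.487, against an SD of 0.622 for C3 itself. None of them therefore ran closely with C3.

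Cfp, which encodes properdin, lies on chromosome X and had a mean of 44.7 normalized counts, near the 41.1 of C3. Per kb of exon Cfp lay above C3, as given below. It had 48.9, 31.1, 75.2 and 39.1 normalized counts in ethanol 1 to 4, against 58.3, 46.3, 40.8 and 18.2 in saline 1 to 4. Ethanol 3 was the highest and saline 4 the lowest, with the other libraries interleaved. The fold was 1.21 (0.658 to 2.24), with a limma adjusted p of 0.997. Saline 1, the library with the highest neutrophil sum, had the second most Cfp, after ethanol 3, and saline 4, with the least Cfp, had the second lowest sum. Other libraries did not keep this order. Ethanol 4, with the second highest sum, had 39.1, and ethanol 1, with the lowest sum, had the third most Cfp. The part of neutrophil transcripts in the Cfp values was not tested.

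**Figure D3:**
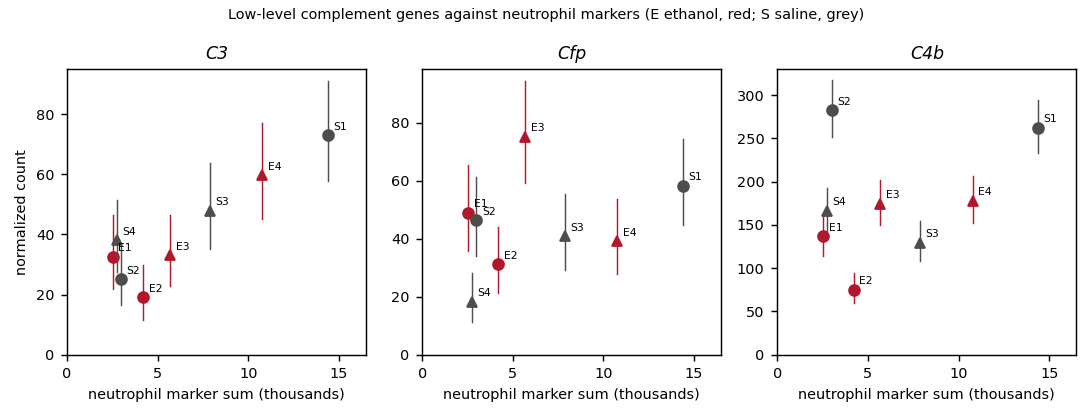
Normalized counts of C3, Cfp and C4b in each library (E ethanol, red; S saline, grey; circles for samples 1 and 2, triangles for 3 and 4) against the summed normalized counts of 10 neutrophil markers (divided by 1000), with 95% Poisson intervals that cover counting error only. C3 is highest in S1, E4 and S3, the libraries with the largest marker sums, while C4b is highest in S2 and S1.

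Other cell types that make C4 or C3 were followed by their markers as well. The 7 astrocyte markers all had a mean of at least 10 and summed to 6308 to 9163 in ethanol and 6893 to 8651 in saline libraries, most of it Slc1a3, at a mean of 6117, while Gfap had 44.3. The 9 oligodendrocyte lineage markers, 5 of them with a mean of at least 10, summed to 2867 to 3317 in ethanol and 2950 to 3247 in saline libraries. The 7 border macrophage markers summed to 801 to 1238 in ethanol and 505 to 2435 in saline libraries, with saline 2, the library with the most C4b, at the top, followed by saline 1 and then ethanol 2, the library with the least C4b. Their part in the C4b values was not tested.

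The receptors for C3a and C5a were well expressed. C3ar1, the C3a receptor gene, had 7252, 7925, 8245 and 8101 normalized counts in ethanol 1 to 4, against 8447, 7789, 8268 and 7566 in saline 1 to 4. Its groups overlapped, with ethanol 1 below every saline library and saline 1 and saline 3 above every ethanol library. It varied least of the 9 genes, by a coefficient of variation of 5.03% over the 8 libraries. The fold was 0.983 (0.893 to 1.08).

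C5ar1 had the smallest unadjusted p of the 9 genes, and it did not pass after adjustment. The gene, which encodes the G protein-coupled receptor through which C5a attracts and activates myeloid cells, had 4116, 4609.7, 4782 and 4262 normalized counts in ethanol 1 to 4 and 3837, 3505, 3726 and 4197 in saline 1 to 4. Only saline 4 reached into the ethanol range, lying above ethanol 1 and below the other ethanol libraries. C5ar1 averaged 4443 ± 307 in ethanol and 3816 ± 289 in saline libraries (SD, n = 4 each), a fold of 1.16 (1.04 to 1.30). The limma p was 0.0115 before adjustment and 0.997 after it. Ethanol was above saline in both sets of samples, with a ratio of means of 1.19 in samples 1 and 2 and 1.14 in samples 3 and 4. In 19 of the 20 alternative fits the unadjusted p was below 0.05, and in none did the adjusted p fall below 0.909. The exception was the fit within samples 3 and 4, with a limma p of 0.129 before adjustment. All these fits reuse the same 8 libraries, so their number is not separate evidence. Neutrophils also express C5ar1; their part in its values was not tested.

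C5ar2, whose product is a C5a receptor that does not couple to G proteins, had 1016, 1043, 1091 and 1083 normalized counts in ethanol 1 to 4 and 1289.9, 905, 869.6 and 1160.0 in saline 1 to 4. Means were nearly the same, 1058 ± 35.4 in ethanol and 1056 ± 203 in saline libraries (SD, n = 4 each), and the ethanol libraries lay within the saline range. The fold was 1.02 (0.848 to 1.22). The normalized counts of C5ar1 were 4.198 ± 0.242 times those of C5ar2 in ethanol and 3.69 ± 0.549 times in saline libraries.

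Over the 9 genes, 4 had a positive and 5 a negative log2 fold change, where 48.8% of all genes were positive and 51.2% negative. The median log2 fold change was -0.0144, against -0.0054 over all genes tested. In limma 0 of the 9 passed, as did 0 of 14428 genes (0.00%), with no adjusted p below 0.997. Before adjustment 1 of the 9, C5ar1, had a p under 0.05, as did 3.63% of all genes, with 1.70% of all genes higher and 1.93% lower in ethanol. edgeR and DESeq2 on the recovered reads also called 0 genes, with 495 and 558 at an unadjusted p under 0.05, and each had the same count of 1 of the 9 below that level. For none of the 9 did the ethanol and saline libraries separate without overlap, which 2.32% of all genes did. Intervals within 1.5-fold in either direction were obtained for 6 of the 9 genes, the C1q chains and the 3 receptors, and for 56.3% of all genes. Intervals within 1.2-fold were obtained for 4 of the 9, the C1q chains and C3ar1, and for 13.3% of all genes. Among genes that averaged 1000 or more these shares were 99.5% for 1.5-fold and 50.7% for 1.2-fold, so such intervals are usual at the level of the C1q and receptor genes. The intervals of C3 and C4b reached below a 1.5-fold decrease, and that of Cfp reached beyond 1.5-fold in either direction.

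**Figure D4:**
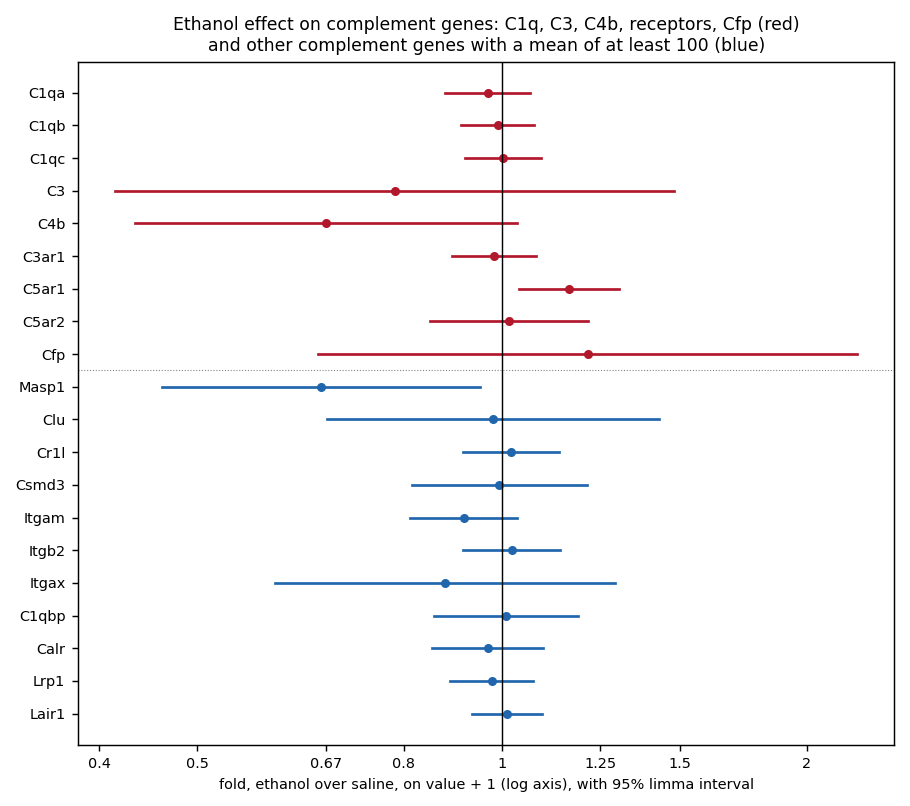
Fold of ethanol over saline on value + 1 (log axis) with the 95% limma interval, for the 9 complement genes (red) and for 11 other complement genes with a mean of at least 100 (blue). Only the intervals of C5ar1 (1.04 to 1.30) and Masp1 (0.461 to 0.952) leave out a fold of 1, and neither gene passed the adjusted test.

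Levels can be set side by side per kb of exon, with exon lengths from GENCODE M21 matched by symbol for all 9 genes. C1qb led with a mean of 81756 normalized counts per kb, followed by C1qc with 55119 and C1qa with 31746, and this order held in all 8 libraries with ranges that did not overlap. C3ar1 came next at 1846 per kb, 17.2 times below C1qa. C5ar1 followed at 1607 per kb, below C3ar1 in each of the 8 libraries although the ranges of the genes overlapped. C5ar2 had 297 per kb. C4b with 30.9 and Cfp with 25.8 per kb did not differ beyond their spread, since C4b was the higher in 4 of the 8 libraries. C3 closed the order at 7.99 per kb and lay below Cfp in all 8 libraries, with overlapping ranges.

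**Figure D5:**
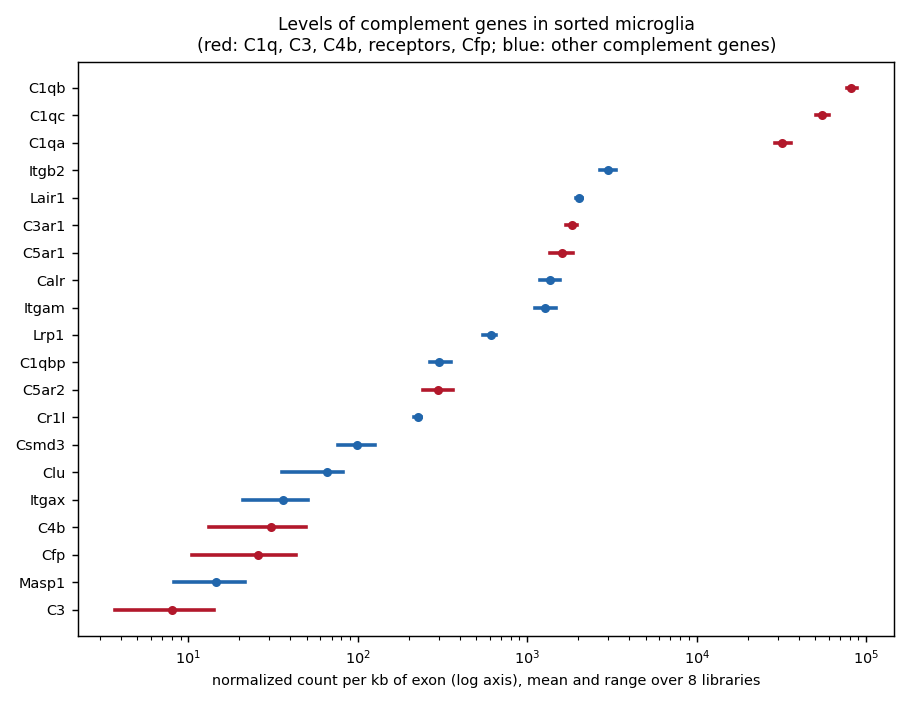
Mean normalized counts per kb of exon (points, log axis) with the range over the 8 libraries (lines) for the 9 complement genes (red) and 11 other complement genes (blue). The C1q chains stand above every other gene drawn, and C3, at 7.99 per kb, is the lowest.

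The rest of the pathway was examined with 57 further complement genes listed by role. All 57 had a row in the table, 19 of them were at 0 in every library, 15 had reads but a mean under 10, and 23 were tested. A count of 0 allows up to 3 reads in a library, or 2.73 to 3.26 normalized counts. In limma 0 of the 23 passed, 3 had an unadjusted p under 0.05, and 8 had positive and 15 negative log2 fold changes, with a median of -0.05. Over all genes tested 3.63% had such a p, 48.8% were positive and 51.2% negative.

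Initiating proteases and recognition proteins other than C1q were scarce. Of 13 listed, 4 were tested. Masp1, a protease gene of the lectin route, averaged 116 ± 37.0 in ethanol and 171 ± 30.4 normalized counts in saline libraries (SD, n = 4 each). Its fold was 0.662 (0.461 to 0.952), with a limma p of 0.0284 before adjustment and 0.997 after it. C1ra, a protease gene of the C1 complex, had a mean of 57.3 over the libraries, and its partner C1s1 was at 0 in all of them. The scavenger receptor collectin gene Colec12 had 7.73 ± 9.68 in ethanol and 29.2 ± 14.4 in saline libraries. Its fold was 0.142 (0.0348 to 0.577), with a limma p of 0.00936 before adjustment and 0.997 after it. It was singled out for this value and lies near the filter. The 4 further convertase components listed were below the filter, with means of 3.49 for C2, 4.72 for C4a, 0.521 for Cfb and 0.251 for Cfd. Of the 7 terminal pathway genes, 6 were at 0 in every library, including Hc, the gene of C5, the precursor of the ligand of C5ar1.

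Regulators were present at very unequal levels. Clu, the gene of clusterin, a soluble inhibitor of the terminal pathway, had 220 ± 56.2 in ethanol and 231 ± 72.9 in saline libraries, a fold of 0.979 (0.672 to 1.43). Among membrane regulators, Cr1l, the rodent inhibitor Crry, had a fold of 1.02 (0.915 to 1.14) at a mean of 2334, and Csmd3 one of 0.994 (0.814 to 1.21) at 1666. Serping1, which encodes the inhibitor of C1 proteases, was at 0 in all libraries.

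Among receptors of C3 fragments and C1q-binding proteins, the 7 that averaged 100 or more had intervals that held 1. Complement receptor 3 is made of the products of Itgam, with a fold of 0.916 (0.812 to 1.03), and Itgb2, with 1.02 (0.916 to 1.14). Itgax, the alpha chain of complement receptor 4 and a plaque-associated microglial gene, had 163 ± 59.3 in ethanol and 182 ± 49.99 in saline libraries, a fold of 0.879 (0.597 to 1.29). The C1q-binding protein genes C1qbp, Calr and Lrp1 had folds of 1.01, 0.968 and 0.977, and Lair1, an inhibitory receptor gene whose product binds C1q, had 1.01 (0.933 to 1.10). Vsig4, a complement receptor gene of tissue macrophages, was at 0 in each library. Scarf1, a C1q-binding scavenger receptor gene, was the single gene of the 23 without overlap of groups, against 2.32% of all genes tested. It had 19.4 ± 7.10 in ethanol and 39.4 ± 4.74 normalized counts in saline libraries. Its fold was 0.478 (0.253 to 0.902), with a limma p of 0.0255 before adjustment and 0.997 after it. It lies below the level set for naming and was named for this value.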

How the data were processed

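The deposited table holds a signal value for each gene in each library, which its file name calls DESeq2-normalized counts. The submitters' processing notes name build GRCm39, bcl2fastq 2.19.1, STAR 2.7.9a, featureCounts 2.0.1 (Subread), Salmon 1.5.2, R 4.2.2 and DESeq2, without role or order, and no source used here gives the annotation. Per the labels' protocols, 500 pg of total RNA was amplified to cDNA (SMARTer), and 150 pg of cDNA gave each NexteraXT library, read as paired 150 nt. All values above 0 (100%) were whole multiples of the smallest in their library within 1e-06, so whole reads were recovered. Library names in the labels tied columns to samples.

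Genes with a mean of at least 10 were tested with limma 3.58.1 in R 4.3.3 (log2(value + 1), intensity trend, group as the only term); edgeR 4.0.16 and DESeq2 1.42.0 on recovered reads were alternatives, beside other pseudocounts, filters, scalings, covariates and left-out libraries. The limma step was tested on simulated data. The outcome is not given here, so the power of the test to find changes is not stated. Named genes were the 9 members, complement genes with a mean of at least 100 and the genes closest to C1q and C3; further genes are marked in the text as chosen for their values. A complement gene of the regulator list is not reported here. Members and lists were chosen with earlier results of these data known. Exon lengths are from an older build, GRCm38, matched by symbol, and no coordinates of the table's genes are given.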

Additional observations from a re-analysis of the deposited data

Results flagged for a closer look

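In 48 groups of 4 libraries, from 24 values reported above, 4 had a library that stood apart from the other 3 by Dixon's criterion at the 95% level; chance gives about 1 in 20 groups. Of these, both within C1q belonged to ethanol 3. Its log2 ratio of C1qa to C1qb was -1.39, against -1.47 to -1.46 in the other ethanol libraries, and its log2 ratio of C1qb to C1qc was -0.303, against -0.259 to -0.250. Among the other complement genes, Lrp1 was 11515 normalized counts in saline 2, against 10613 to 10743, and Clu was 123 in saline 2, against 255 to 281.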

How the results depend on the processing

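In each of the 20 alternatives 0 genes were called by an adjusted p under 0.05, so no complement gene changed its side of the threshold; the smallest adjusted p of any of the 20 complement genes was 0.909. C5ar1 kept its direction in all 20, with log2 fold changes of 0.18 to 0.27, as did Masp1 and Itgam. The unadjusted p was under 0.05 in 19 of the 20 for C5ar1, in 14 for Masp1, in 4 for C4b and in 2 for Itgam. The alternatives share the same libraries. Of 178 log2 fold changes of the 9 genes, 156 kept their sign, and the other 22 belong to 8 genes. Quantile normalization turned C1qa (0.0270) and C1qc (-0.0499). With the library-name number as a covariate C1qb had 0.0056, Clu 0.19 and Csmd3 0.0030. In edgeR and DESeq2 Csmd3 had 0.0133 and 0.0082. Within samples 1 and 2 the log2 fold change was 0.0023 for C1qb, -0.0704 for C5ar2, -0.40 for Cfp, -0.0081 for Cr1l, 0.0326 for Csmd3, 0.15 for Itgax and 0.0099 for Calr. Within samples 3 and 4 it was -0.0135 for C1qc, 0.0557 for C3, 0.26 for C4b, 0.0473 for C3ar1, 0.0485 for Clu, -0.0179 for C1qbp and -0.0028 for Lair1. The cause was not tested.

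Leaving out 1 library at a time gave log2 fold changes of -0.0818 to 0.0105 for C1qa, -0.0513 to 0.0227 for C1qb, -0.0341 to 0.0483 for C1qc, -0.0525 to 0.0143 for C3ar1, -0.0648 to 0.12 for C5ar2 and -0.0572 to 0.49 for Cfp. C3 (-0.63 to -0.09) and C4b (-0.78 to -0.30) kept their sign. The ranges were -0.31 to 0.10 for Clu, -0.13 to 0.10 for Csmd3, -0.0136 to 0.0914 for Itgb2, -0.40 to 0.0186 for Itgax, -0.0629 to 0.0702 for C1qbp, -0.12 to 0.0040 for Calr, -0.0717 to 0.0077 for Lrp1 and -0.0075 to 0.0286 for Lair1. C3 and Cfp had no value under the filter of 50. The log2 ratios of C1q chains kept their sign, and with 1 library left out their exact p cannot go below 0.0571. The share of C1q transcripts differed by -0.04 to 0.02 percentage points. With the sample number as a replicate block, limma called 0 genes, with 645 at an unadjusted p under 0.05, and C5ar1 kept a log2 fold change of 0.22. The numbers were not taken to pair the libraries: deviations from the group means of same-numbered libraries correlated at 0.0138 to 0.0796, and ethanol 1 correlated best with saline 2 (0.137). Depth limits C3 and Cfp most, where counting alone gives a coefficient of variation of 15.5% and 14.9%.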

Other observations

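Within samples 1 and 2 and within samples 3 and 4 the log2 fold changes of C1qa and C5ar1 had the same sign. Those of the other members differed in sign between the sets, some of them near 0, such as 0.0023 and -0.0311 for C1qb. How often signs differ in this way over all genes tested was not determined, so it is not read as a trait of the complement genes. For C4b, named here for this pattern, the libraries did not overlap within either set. The share of all genes that behave so with 2 libraries against 2 was not determined. In samples 1 and 2 both ethanol libraries, 137 and 75.2 normalized counts, lay below both saline libraries, 263 and 283. In samples 3 and 4 both ethanol libraries, 174 and 178, lay above both saline libraries, 129 and 166. In limma fits of these sets the log2 fold change was -1.42 within samples 1 and 2, with an adjusted p of 0.909, and 0.26 within samples 3 and 4, with an adjusted p of 1.00. The difference between these sets was not tested, the division was chosen with earlier results known, and the labels do not say what the numbers stand for. The sets also partly coincide with the numbers in the library names, given above. The ethanol libraries of C5ar2 ranged from 1016 to 1091 and its saline libraries from 869.6 to 1289.9 normalized counts. The difference in spread was not tested.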
